A study of Homo sapiens with 24 samples.

Results

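AGR2, SPDEF, F11R, CLCA2 and LIPH are 5 genes best known from epithelial and mucus-secreting cells, described here among 22925 gene symbols in cytoplasmic RNA of cells labelled U2OS. They were taken by name from the table of FPKM (fragments scaled to transcript length and to the mapped fragments of the library) and had been selected on values measured in these same libraries. Their differences between siRNA series are therefore given as a description, with no test. Each gene has 1 RefSeq transcript in the table (NM_006408 for AGR2, NM_012391 for SPDEF, NM_016946 for F11R, NM_006536 for CLCA2 and NM_139248 for LIPH). No library listed any of the 5 at 0, and 5 of 5 were among the 7860 genes tested.

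U2OS is a human osteosarcoma line, and the identity of the cells was not checked beyond the markers given below. The cells had received, by lipid transfection, siRNA labelled as a knockdown of the long isoform of PAN3, of the short isoform, of both, or a control siRNA. PAN3 recruits PAN2, an enzyme that trims the poly(A) tails of mRNA. Each of the 4 series was sampled at 0, 0.5, 1, 2, 4 and 6 h of actinomycin D, which blocks transcription. There was 1 library for each series and time, so neither a time nor a series was repeated.

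AGR2 is a protein disulfide isomerase of the endoplasmic reticulum that mucin-producing cells need to fold mucins. SPDEF is an ETS-family transcription factor that directs goblet cell differentiation, and in the mouse it promotes expression of Agr2. The products of the other genes act at the cell surface or outside the cell. F11R, also named JAM-A, is an adhesion molecule of tight junctions. CLCA2 modulates calcium-activated chloride currents and is a p53 target. LIPH is a phospholipase that releases the signalling lipid lysophosphatidic acid.

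The start regions of the genes are shown as background, and whether they have any part in the levels was not tested. RefSeq promoter sequence of build GRCh38.p14 was found for 4 of the 5, and each line runs from 100 bases before the start site to 50 bases from it, on the gene's own strand. Capitals mark a match to a forkhead (FOXA) motif.
AGR2, chr7:16804950-16805099, minus strand: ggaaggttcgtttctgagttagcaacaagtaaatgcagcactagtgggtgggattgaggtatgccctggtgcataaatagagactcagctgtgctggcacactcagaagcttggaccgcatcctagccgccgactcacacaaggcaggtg
SPDEF, chr6:34556280-34556429, minus strand: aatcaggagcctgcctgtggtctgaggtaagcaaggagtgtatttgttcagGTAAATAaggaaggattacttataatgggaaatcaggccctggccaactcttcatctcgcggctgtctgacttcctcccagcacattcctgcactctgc
CLCA2, chr1:86424071-86424220, plus strand: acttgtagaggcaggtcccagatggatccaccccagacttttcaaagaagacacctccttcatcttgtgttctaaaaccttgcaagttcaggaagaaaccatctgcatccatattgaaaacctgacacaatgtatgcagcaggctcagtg
LIPH, chr3:185552539-185552688, minus strand: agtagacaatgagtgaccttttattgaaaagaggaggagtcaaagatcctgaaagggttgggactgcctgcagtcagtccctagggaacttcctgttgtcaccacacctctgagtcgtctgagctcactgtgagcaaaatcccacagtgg

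The FOXA spellings TGTTTAC and TATTTAC were searched on both strands in the full windows of 300 bases, as was CGGAT, a core that SPDEF prefers. A single match was found among the 4 genes, a TATTTAC on the strand opposite to SPDEF that begins at position -49. Either FOXA spelling occurs in 5.97% of 35116 promoter windows of the same length, and CGGAT in 17.98%. A match of letters is no evidence of binding, and the windows without one say nothing about the factors.

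The labels were checked first. PAN3 averaged 0.898 ± 0.556 FPKM in the long-labelled, 2.51 ± 0.901 in the short-labelled and 1.45 ± 0.759 in the both-labelled series, against 0.988 ± 0.847 in the control series (SD over the 6 times). The control mean includes a 0 listed at 6 h, after 2.4 FPKM at 4 h, which may be a failed estimate. The PAN3 transcript in the table does not separate the isoforms. The short-labelled mean stood above the control mean, with overlapping ranges, so the series are named by their labels. FPKM summed to between 324022.8 and 384230.8 per library. Of the osteoblast genes, SP7 reached at most 0.059 FPKM in any library, ALPL 0.043 and RUNX2 1.93, and TWIST1 was listed at 0 in all 24. A 0 in this table can be a failed estimate, since KRT8 was listed at 0 in 3 libraries and at up to 327 FPKM in others, and VIM at 0 in 1. Other genes of the same list of 19 were abundant: per series VIM averaged 396 to 818 FPKM, S100A4 819 to 1195, COL5A1 42.1 to 81.9 and COL1A1 11.3 to 88.2. Of the epithelial genes, CDH1 reached at most 0.033 and EPCAM 0.021 FPKM, while the keratins KRT7 and KRT18 averaged 146 to 244 FPKM per series.

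SPDEF, the transcription factor, was at a low level in 2 series and above 1.5 FPKM in the others. In time order, it stood at 0.035, 0.049, 0.07, 0.091, 0.018 and 0.031 FPKM in the long-labelled libraries. The short-labelled libraries held 2.65, 1.93, 2.66, 2.47, 1.83 and 1.6 FPKM, and the both-labelled libraries 1.99, 2.02, 2.01, 1.96, 1.89 and 1.66. The control libraries held 0.161, 0.141, 0.199, 0.131, 0.118 and 0.225 FPKM. The order from high to low was short-labelled, both-labelled, control and long-labelled, with overlap between the first 2 and none between the others. The short-labelled level was 7.08 to 18.9 times the control level of the same time, and the both-labelled level 7.37 to 16.04 times.

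The long-labelled SPDEF values rest on very few fragments. After scaling each library by its relative depth, read from the steps of other low genes, the 6 values fell within 0.1 of 1 to 5 whole steps, with the step chosen as the largest that allows this. The same step gave about 85 to 160 in the short-labelled, 93 to 110 in the both-labelled and 6 to 13 in the control libraries. Relative depth itself ranged from 0.864 to 1.05, so the libraries were of like size. The control mean was 3.32 times the long-labelled mean, a ratio that few fragments carry.

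AGR2 showed the same order of series at higher levels. The long-labelled libraries held 0.482, 0.693, 0.805, 0.529, 0.791 and 0.292 FPKM. The short-labelled libraries held 22.8, 24.9, 26.8, 28.1, 35.0 and 42.0 FPKM, and the both-labelled 20.1, 20.3, 23.1, 24.8, 28.6 and 34.1. In the control libraries AGR2 stood at 3.14, 2.48, 4.25, 3.19, 3.77 and 4.54 FPKM. Long-labelled, control and the pair of high series did not overlap. Both-labelled values were below the short-labelled ones at 6 of 6 times, by a ratio of 0.812 to 0.885, although their ranges overlapped. The gap was present at 0 h, when the short-labelled level was 7.26 times and the both-labelled 6.42 times the control.

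**Figure D1:**
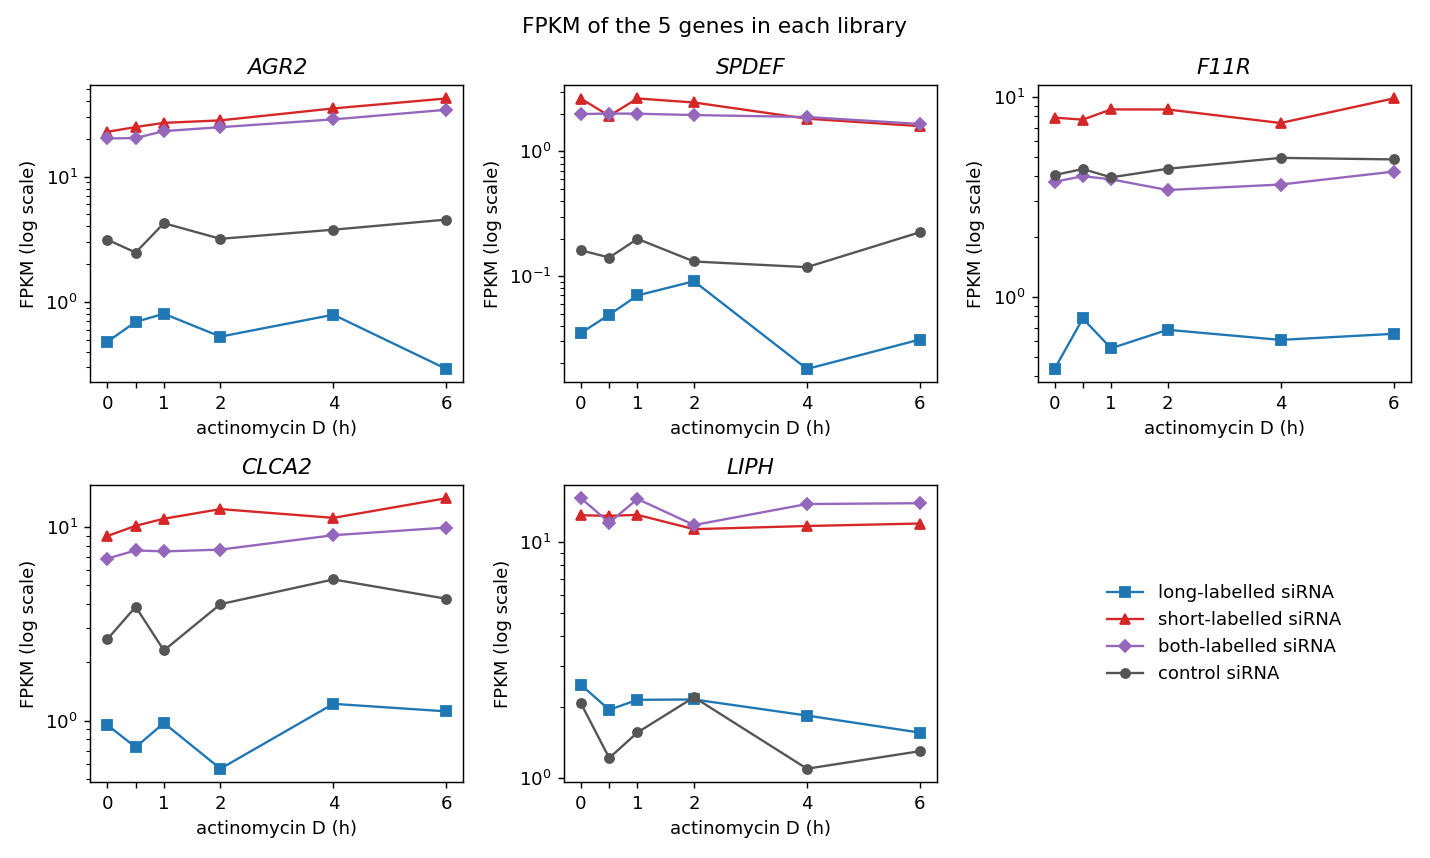
FPKM on a log axis against hours of actinomycin D, 1 panel per gene and 1 point per library, with lines joining the 6 libraries of a series. The short-labelled AGR2 values sit between 22.8 and 42.0 FPKM and the long-labelled between 0.292 and 0.805. For LIPH the long-labelled and control series share the bottom of the panel, and for F11R the both-labelled and control series run together.

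In the short-labelled series AGR2 was 5.49 ± 0.19 log2 units above its long-labelled level (SE; limma on log2(FPKM + 0.1) less each library's median), rank 5 from the top of 7860 genes. SPDEF ranked 8 in that comparison, F11R 9, CLCA2 10 and LIPH 40. These ranks describe the genes as they were selected and support nothing further.

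CLCA2, the chloride channel regulator, followed AGR2 with smaller ratios. Its long-labelled values were 0.948, 0.728, 0.971, 0.564, 1.22 and 1.12 FPKM. They were 8.96, 10.1, 10.999, 12.3, 11.1 and 14.03 in the short-labelled and 6.85, 7.55, 7.46, 7.62, 9.04 and 9.9 in the both-labelled series, against 2.63, 3.86, 2.3, 3.99, 5.34 and 4.25 FPKM in the control. Short-labelled values were 2.08 to 4.78 times and both-labelled values 1.69 to 3.24 times the control of the same time. The control mean was 4.04 times the long-labelled mean, and no long-labelled library reached the lowest control library. Both-labelled values were lower than short-labelled ones at 6 of 6 times, with overlapping ranges.

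F11R, the junction adhesion molecule, departed from that order in the both-labelled series. It stood at 0.434, 0.777, 0.551, 0.682, 0.607 and 0.651 FPKM in the long-labelled libraries and at 7.89, 7.71, 8.67, 8.67, 7.41 and 9.84 in the short-labelled ones. The both-labelled libraries held 3.76, 4.01, 3.87, 3.42, 3.64 and 4.23 FPKM, against 4.07, 4.36, 3.96, 4.37, 4.96 and 4.87 in the control. The both-labelled and control ranges overlapped, although the both-labelled value was the lower one at 6 of 6 times. On the log2 scale the both-labelled series was 0.13 ± 0.10 units below the control (difference -0.13) and differed from the short-labelled series by -1.12 ± 0.10. Between the both-labelled and short-labelled series 17.5% of all tested genes were called in either direction. Long-labelled F11R was 5.61 to 9.38 times lower than the control. In the GENCODE annotation of GRCh38 another protein-coding gene overlaps F11R on the same strand, and how its reads were counted is not given in the sources used here.

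LIPH, the phospholipase, departed in the long-labelled series. That series held 2.49, 1.95, 2.15, 2.16, 1.84 and 1.56 FPKM and overlapped the control, at 2.08, 1.22, 1.56, 2.2, 1.1 and 1.3, being higher at 5 of 6 times. The short-labelled libraries held 12.99, 12.9, 13.04, 11.3, 11.7 and 11.99 FPKM and the both-labelled 15.3, 12.1, 15.2, 11.8, 14.5 and 14.6. These high series overlapped each other. Short-labelled levels were 5.15 to 10.6 times and both-labelled levels 5.36 to 13.2 times the control.

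**Figure D2:**
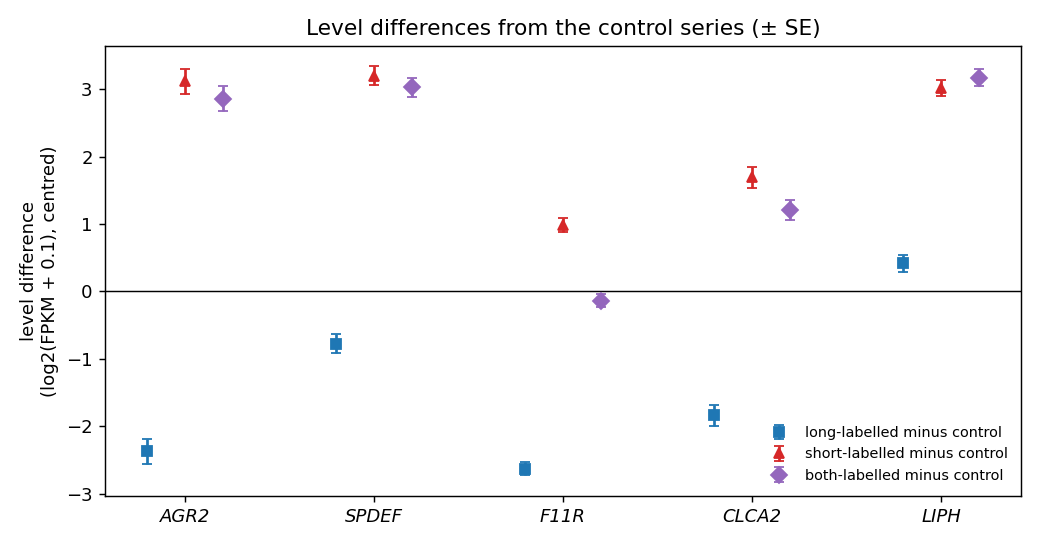
Level difference of each gene from the control series in log2 units on the log2(FPKM + 0.1) scale, with its standard error, from the fit to all 24 libraries. Short-labelled differences run from 0.99 for F11R to 3.20 for SPDEF, both-labelled ones from -0.13 for F11R to 3.17 for LIPH, and long-labelled ones from -2.63 for F11R to 0.42 for LIPH.

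In that fit the long-labelled differences from the control were -2.37 ± 0.19 for AGR2, -0.78 ± 0.14 for SPDEF, -2.63 ± 0.10 for F11R, -1.84 ± 0.15 for CLCA2 and 0.42 ± 0.12 for LIPH. The added 0.1 FPKM understates changes of low genes, SPDEF above all. Thus 4 of the 5 stood lower and LIPH slightly higher. The short-labelled differences were 3.12 ± 0.19, 3.20 ± 0.14, 0.99 ± 0.10, 1.70 ± 0.15 and 3.02 ± 0.12 in the same gene order, positive for 5 of 5. In the both-labelled series AGR2, SPDEF, CLCA2 and LIPH differed by 2.86 ± 0.19, 3.03 ± 0.14, 1.21 ± 0.15 and 3.17 ± 0.12. The 3 comparisons share the control libraries. The median over 7860 genes was 0.03 in each of them.

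After actinomycin D, AGR2 rose relative to the library median in 3 of 4 series. The ratio of FPKM at 6 h to that at 0 h was 1.85 in the short-labelled, 1.69 in the both-labelled and 1.45 in the control series, against medians over the tested genes of 0.962, 0.977 and 0.950 in those series. Its slope, in values less the library median, was 0.19 ± 0.05 log2 units per h in the short-labelled series (limma adjusted p = 0.00669), 0.17 ± 0.05 in the both-labelled (adjusted p = 0.0158) and 0.15 ± 0.05 in the control series (adjusted p = 0.0275). FPKM are shares of a library, so a value above 1 need not mean more RNA. In the long-labelled series, at under 1 FPKM, the ratio was 0.606 and the slope -0.05 ± 0.05 (adjusted p = 0.455), and without the 6 h libraries the slope was 0.14.

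Whether these AGR2 slopes were called depended on single times, even where the slope itself did not fall. The short-labelled call was lost without the 6 h libraries (slope 0.19, limma adjusted p = 0.052) or the short-labelled 6 h library alone (adjusted p = 0.11). In the both-labelled series the call was lost without the 6 h libraries (slope 0.18, limma adjusted p = 0.0769). It was also lost without the both-labelled 6 h library (adjusted p = 0.149) or that of 0 h (adjusted p = 0.0509), and with uncentred values (slope 0.13, adjusted p = 0.0546). In the control series it was lost in 10 of 20 alternatives, with slopes of 0.09 to 0.15.

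CLCA2 had a positive slope in 4 of 4 series, of 0.13 ± 0.05 log2 units per h in the long-labelled, 0.13 ± 0.05 in the short-labelled, 0.12 ± 0.05 in the both-labelled and 0.18 ± 0.05 in the control series. The control slope passed the test (limma adjusted p = 0.00714), though not without the 0 h libraries (adjusted p = 0.0512) or with uncentred values (adjusted p = 0.0572). The others did not, at adjusted p = 0.0607, 0.0522 and 0.0631. The slope differences from the control were -0.06 ± 0.08 in the long-labelled, -0.06 ± 0.08 in the short-labelled and -0.06 ± 0.08 in the both-labelled series. Without the control library of 6 h the CLCA2 slope was 0.30 in the control (adjusted p = 0.00756), and the differences were -0.169, -0.167 and -0.171.

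F11R also had positive slopes, of 0.08 ± 0.03 in the long-labelled, 0.08 ± 0.03 in the short-labelled and 0.05 ± 0.03 in the both-labelled series, against 0.10 ± 0.03 in the control (limma adjusted p = 0.0834, 0.0691, 0.226 and 0.0192). The control call was lost in 7 of 19 alternatives, among them leaving out the control library of 0 h (adjusted p = 0.0578), 4 h (0.0519) or 6 h (0.0823). SPDEF and LIPH had no slope past the threshold in any series. SPDEF reached the mean of 1 FPKM needed for testing only through the short-labelled and both-labelled series. Its long-labelled values all lay below the added 0.1 FPKM, which flattens a slope, so the lack of a call there decides nothing. With 0.01 FPKM added instead, the long-labelled SPDEF slope was -0.091. LIPH slopes ran from -0.04 to 0.05 and those of SPDEF from -0.06 to 0.08 log2 units per h, where the median over all tested genes was 0.035 to 0.044.

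**Figure D3:**
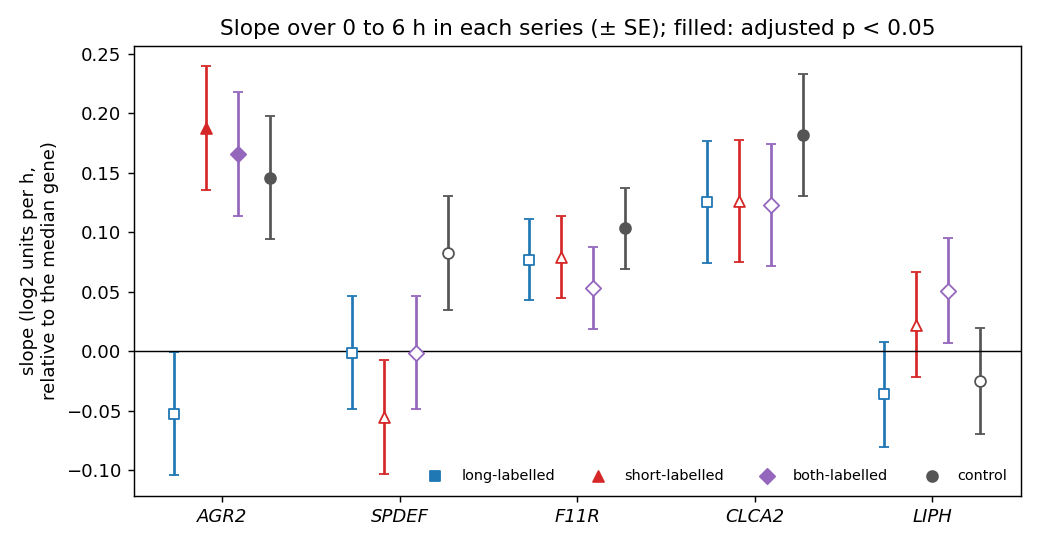
Slope over 0 to 6 h of actinomycin D in log2 units per h, in values less the library median, with its standard error, for each gene and series. Filled symbols mark a Benjamini-Hochberg adjusted p under 0.05: AGR2 in the short-labelled, both-labelled and control series, and F11R and CLCA2 in the control series.

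By series, the count of the 5 genes with a called slope above 0 was 0 in the long-labelled series, where 26.1% of tested genes passed in that direction, 1 in the short-labelled (28%), 1 in the both-labelled (26.3%) and 3 in the control (30.1%). None of the 5 had a called slope below 0 in any series, where 13.4%, 16.3%, 14.6% and 16.7% of tested genes did. The control count lay above its share and the long-labelled count below. With only 5 genes, none of these counts is read as a result about them.

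For AGR2 the slope difference from the control was 0.04 ± 0.07 in the short-labelled and 0.02 ± 0.07 in the both-labelled series. In the long-labelled series that of AGR2 was -0.20 ± 0.07 log2 units per h. Without the 6 h libraries it was 0.001, so it rested on that time. SPDEF had a slope difference of -0.14 ± 0.06 in the short-labelled series, and of -0.034 without the control library of 6 h. At 0 h LIPH was already 6.26 times the control in the short-labelled and 7.39 times in the both-labelled series.

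Of the relatives, TXNDC12, of the same isomerase family as AGR2, averaged 61.1 FPKM in the long-labelled, 93.6 in the short-labelled and 93.8 in the both-labelled series, against 57.4 in the control. It rose in the short-labelled and both-labelled series, by 0.79 ± 0.13 and 0.76 ± 0.13 log2 units (limma adjusted p = 5.28e-05 and 7.96e-05). The lipase LPL averaged 5.28 to 6.38 FPKM per series, and the ETS factors ETS1 and ETS2 1.67 to 4.77 and 13.5 to 24.96. Other relatives were low. The AGR2 paralogue AGR3 reached at most 0.112 FPKM, the junction proteins JAM2 and JAM3 0.186 and 0.57, the CLCA2 relatives CLCA1 and CLCA4 0 and 0.01, and the LIPH relative LIPI 0.024. The nearest tested genes on either side of the 5, by RefSeq order, did not share one direction. Untested genes can lie between, and only some of the nearest tested genes are named here. On one side of AGR2, TSPAN13 was 0.20 ± 0.03 log2 units higher in the short-labelled series than in the control (limma adjusted p = 7.59e-05). On the other side the dioxin receptor gene AHR was 2.19 ± 0.23 lower (difference -2.19, adjusted p = 2.35e-07). USF1, the nearest tested gene on one side of F11R, resembled it in the long-labelled (-2.11 ± 0.16, adjusted p = 5.03e-09) and short-labelled series (0.79 ± 0.16, adjusted p = 0.000346). In the both-labelled series USF1 was lower by 1.73 (-1.73 ± 0.16, adjusted p = 4.17e-08).

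Other epithelial and secretory genes moved in both directions. Of 62 tested genes on 5 lists that hold none of the 5, 21 rose and 18 fell in the long-labelled series against the control (33.9% and 29%). Over all tested genes the shares were 27.1% and 24.1%. In the short-labelled series 29 rose and 9 fell (46.8% and 14.5%, against 32.7% and 30.7% of all tested genes), and in the both-labelled series 28 rose and 16 fell (45.2% and 25.8%, against 33% and 29%). The list medians were -0.02, 0.21 and 0.13 log2 units.

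Of 22 tested genes of mucus and the secretory pathway, 12 rose and 5 fell in the short-labelled series, 14 rose and 6 fell in the both-labelled, and 10 rose and 4 fell in the long-labelled. GALNT2, which starts O-linked glycans, was higher than in the control by 1.20 ± 0.04 log2 units in the long-labelled, 1.69 ± 0.04 in the short-labelled and 1.67 ± 0.04 in the both-labelled series (limma adjusted p = 3.03e-14, 1.42e-16 and 1.95e-16). TFF1, a secreted trefoil peptide, shared the directions of AGR2. It averaged 10.8 FPKM in the long-labelled, 76.1 in the short-labelled and 74.2 in the both-labelled series, against 28.8 in the control, with log2 differences of -1.38 ± 0.07, 1.47 ± 0.07 and 1.43 ± 0.07 (limma adjusted p = 8.03e-12, 1.75e-12 and 2.86e-12). The disulfide isomerases P4HB and PDIA3 rose in the short-labelled series by 0.76 ± 0.03 and 1.38 ± 0.07 (adjusted p = 5.45e-13 and 1.1e-11). SEC61A1, a subunit of the translocon, fell by 1.41 ± 0.15 there (adjusted p = 1.48e-07), and so did RAB26, GALNT7 and BACE2.

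Of 11 epithelial regulators, 5 rose and none fell in the short-labelled series, 4 rose and 2 fell in the both-labelled, and 1 rose and 3 fell in the long-labelled. FOXA1, a pioneer factor of secretory epithelia, was higher by 1.03 ± 0.15 in the short-labelled and 1.08 ± 0.15 in the both-labelled series (limma adjusted p = 7.83e-06 and 4.4e-06). XBP1, which expands the secretory pathway, was higher by 1.02 ± 0.13 and 1.08 ± 0.13 in those series (adjusted p = 3.23e-06 and 1.58e-06). The ETS factor ELF3 fell by 1.87 ± 0.21 in the long-labelled series (adjusted p = 5.88e-07) and by 0.57 ± 0.21 in the both-labelled (adjusted p = 0.0231).

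Junction genes, the group nearest to F11R, were mixed. Of 17 tested, 5 rose and 7 fell in the long-labelled, 5 rose and 3 fell in the short-labelled, and 5 rose and 4 fell in the both-labelled series. The claudin gene CLDN1 rose in each, by 0.50 ± 0.07, 2.12 ± 0.07 and 1.57 ± 0.07 (limma adjusted p = 1.72e-05, 6.81e-14 and 4.28e-12). CGN, which encodes the junction protein cingulin, was lower than in the control in each, with differences of -1.20 ± 0.14, -0.48 ± 0.14 and -0.87 ± 0.14 (adjusted p = 1.51e-06, 0.00706 and 3.71e-05). Of 8 surface and protease genes, 3 rose and 3 fell in the long-labelled, 5 rose and 1 fell in the short-labelled, and 3 rose and 4 fell in the both-labelled series. PRSS8, a membrane protease, again had the directions of AGR2, with differences of -1.0 ± 0.15, 1.505 ± 0.15 and 1.41 ± 0.15 (adjusted p = 1.59e-05, 6.85e-08 and 1.61e-07). Other genes of that list did not. S100P fell in each series (-0.996 ± 0.04, -0.46 ± 0.04 and -0.85 ± 0.04, limma adjusted p = 1.16e-12, 2.17e-08 and 5.56e-12). MAL2 rose in each (0.73 ± 0.08, 1.03 ± 0.08 and 1.09 ± 0.08, limma adjusted p = 3.2e-07, 2.17e-09 and 1.17e-09). Of 4 family and partner genes, 2 rose and 1 fell in the long-labelled series, and 2 rose and none fell in the short-labelled and in the both-labelled. The growth factor gene AREG fell in the long-labelled series (-0.85 ± 0.11, adjusted p = 2.59e-06) and rose in the short-labelled (0.29 ± 0.11, adjusted p = 0.026). LYPD3 rose in each series, by 2.13 ± 0.06, 2.88 ± 0.06 and 2.79 ± 0.06 (adjusted p = 1.82e-14, 1.53e-16 and 2.24e-16).

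**Figure D4:**
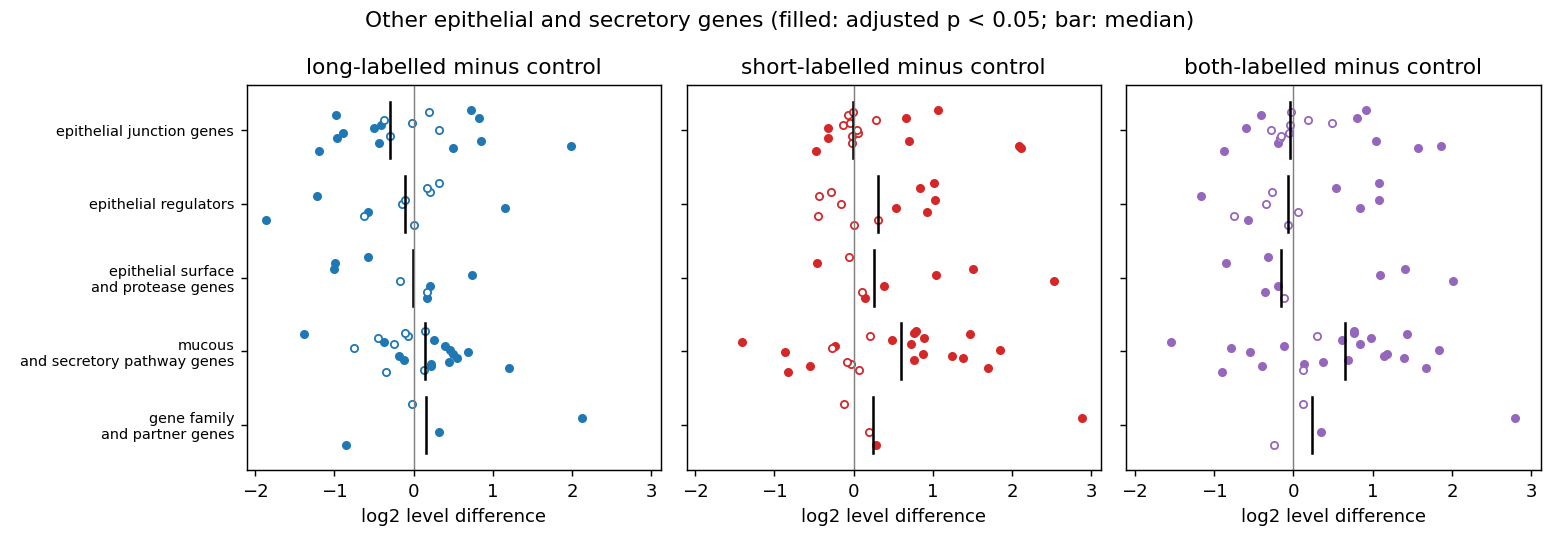
Level difference from the control series in log2 units for each tested gene of the 5 lists, with a panel for each siRNA series set against the control. Filled points passed an adjusted p under 0.05 and bars mark list medians. Points lie on both sides of 0 in every panel, and the medians of the mucous and secretory list are 0.14, 0.60 and 0.65.

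The markers of other cell types were read beside these levels. Goblet cell markers summed to 20.5 to 26.0 FPKM in the long-labelled, 14.7 to 31.3 in the short-labelled and 20.3 to 25.8 in the both-labelled libraries, against 124 to 216 in the control. SPINK4 carried that sum, and CLCA1 and TFF3 were listed at 0 in all libraries. Basal keratinocyte markers summed to 92.7 to 110.4 FPKM in the long-labelled, 170.2 to 231.3 in the short-labelled and 162.7 to 199.98 in the both-labelled libraries, against 115 to 139 in the control, the order that AGR2 showed. Both of the 2 tested markers, KRT17 and SFN, rose in the short-labelled and both-labelled series, but KRT5 reached at most 0.071 FPKM. Sums of luminal markers overlapped between all series, and ESR1 was at most 0.09 FPKM. Of the 3 tested luminal markers, TFF1 and FOXA1 rose in the short-labelled and both-labelled series, as given above. The third, KRT18, was not called in the short-labelled series (0.11 ± 0.15, limma adjusted p = 0.558) and was lower in the both-labelled (-0.36 ± 0.15, adjusted p = 0.0482). The osteoblast and mesenchymal sums also overlapped, but 2 of the 3 tested members rose in each series. Zeros that may be failed estimates enter these sums, so their overlap decides little. KRT8 was listed at 0 in 3 libraries, COL1A1 in 7 and VIM in 1. TNC rose by 2.05 ± 0.29 in the long-labelled, 3.49 ± 0.29 in the short-labelled and 3.61 ± 0.29 in the both-labelled series (limma adjusted p = 1.04e-05, 8.27e-09 and 5.58e-09), and COL5A1 by 1.01 ± 0.13, 0.69 ± 0.13 and 0.59 ± 0.13 (adjusted p = 5.12e-06, 0.00021 and 0.000894). The third tested member, the abundant S100A4, was lower in the long-labelled and both-labelled series (-0.50 ± 0.04 and -0.44 ± 0.04, limma adjusted p = 2.68e-08 and 8.48e-08). In the short-labelled series S100A4 was not called (0.02 ± 0.04, adjusted p = 0.657). Blood cell markers, mostly HBA1, summed to 1.36 to 2.36 FPKM in the long-labelled, 6.43 to 11.98 in the short-labelled and 8.94 to 13.5 in the both-labelled libraries, against 1.58 to 3.73 in the control, so they too were high where AGR2 was. Endothelial markers summed to at most 3.21. The part of such cells in the levels of the 5 genes was not tested, and in bulk RNA fewer cells of a type cannot be told apart from less RNA per cell.

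The 5 genes correlated with each other over the 24 libraries at Pearson r between 0.552 for F11R with LIPH and 0.962 for AGR2 with CLCA2, and at 0.957 for AGR2 with SPDEF. The points share 4 series, so the series means carry these values. Outside the 5, the courses most like AGR2 over the 24 libraries were those of CAPZA1, P4HA2 and FDXR (r = 0.988, 0.983 and 0.979). Those most like SPDEF were S100PBP, TMOD1 and CHMP4C (0.981, 0.98 and 0.977), of which the first 2 were listed at 0 throughout the long-labelled and control series. RAB5B, ITGA6 and ISG15 were nearest to F11R (0.985, 0.972 and 0.972) and SC4MOL, SPCS3 and TFF1 to CLCA2 (0.983, 0.978 and 0.97). DDX47, TMOD1 and CCDC24 were nearest to LIPH (0.986, 0.984 and 0.984), and CCDC24 too was listed at 0 throughout the long-labelled and control series. S100PBP, TMOD1 and CCDC24 reached the mean of 1 FPKM needed for testing only through the short-labelled and both-labelled series. Their zeros may be failed estimates, so their r values say little about shared levels.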

How the data were processed

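Cytoplasmic RNA of 24 libraries was sequenced. The submitters' processing notes name TopHat 1.3.3 and hg19. The authors deposited FPKM values in 1 row per RefSeq transcript, and the tool that made them is not given in the sources used here. Rows were summed per gene. Of 22925 symbols, the 7860 with a mean of at least 1 FPKM, no dash, and no 0 adjoining, within a series, a time at 1 FPKM or more were tested. Values were log2(FPKM + 0.1) less the library's median. limma 3.58.1 (R 4.3.3) with a mean-variance trend fitted all 24 libraries: series and time as a factor for levels, and a line per series for slopes. Benjamini-Hochberg adjusted p under 0.05 over all tested genes was called. As each series and time had 1 library, p-values measure scatter about the courses, which may be technical. The labels name no repeated transfection of any siRNA. A small p for a level difference therefore does not show that the siRNA caused it or that it would recur. The fits of levels and of slope differences were tested on simulated data, but the slopes within a series were not.

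The 5 genes, the gene lists and the rule for zeros were chosen with earlier results of these data known. Named were the 5 genes, called list genes with the smallest p, close relatives, and the 3 genes most correlated with each. Those named among the nearest tested genes in the genome, TXNDC12 and single marker genes were picked for naming with their values in view. The depth is unknown, so no counting error is given. Relative depth came from the commonest ratio of values under 0.05 FPKM between libraries.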

Additional observations from a re-analysis of the deposited data

Results flagged for a closer look

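F11R in the both-labelled library of 6 h, at 4.23 FPKM, stood above the other 5 libraries of its series by 0.653 of their whole range in log2 values less each library's median, beyond Dixon's critical value of 0.625. Without subtracting the median the gap was 0.248 of the range, under that value, so the FPKM as deposited do not stand apart. It was the 1 such case among 20 sets of 6 libraries, where about 1 in 20 arises by chance. The library was also the last of its time course, so the 6 values are not repeats of one condition.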

How the results depend on the processing

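The level differences of the 5 genes from the control kept their sign under every alternative run: other pseudocounts, filters, centring or quantile normalisation, no trend, only the 12 libraries compared, no time term, and leaving out each time or library. A pseudocount of 1 FPKM shrank those of low genes, to -0.106 for SPDEF in the long-labelled series, where 0.01 gave -1.60. SPDEF in the short-labelled series ran from 1.52 to 3.77 with the same choices. With no filter the list genes called numbered 70, 68 and 74 for the long-labelled series, the short-labelled one and the both-labelled one, against 39, 38 and 44, as more genes were tested. Under the other alternatives the counts were within 1.5 times, the lowest being 27, 27 and 32 without the time term, that is with no replicate block. The filter at 5 FPKM could not be applied to SPDEF or F11R, whose means are lower. Slopes of AGR2 in the control lost the call in 10 of 20 alternatives, in the both-labelled series in 6 of 21 and in the short-labelled in 2 of 21. Those of CLCA2 and F11R in the control lost it in 2 of 20 and 7 of 19. The cause was not tested. F11R, CLCA2 and SPDEF slopes that missed the threshold passed it under some alternatives. With 1 library per time and under 1 FPKM, long-labelled slopes have little precision.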
